A study of Homo sapiens with 6 samples.

Results

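The subject is the set of enzymes that handle peroxides, superoxide and reactive electrophiles through glutathione, thioredoxin, peroxiredoxins, superoxide dismutases and catalase, with the regulators NFE2L2 (NRF2) and KEAP1. Members were found by gene symbol alone. The rule itself uses no values, but it was chosen with earlier results of these data known. It takes GPX genes, cytosolic and mitochondrial GST genes, MGST1 to MGST3, PRDX1 to PRDX6, TXNRD1 to TXNRD3 and glutaredoxins. It also takes 13 single genes from glutathione synthesis to catalase. The rule found 56 of the 24580 rows of the table, which carry 55 symbols because SOD2 stands in 2 rows. Messenger RNA was measured by RNA sequencing in LoVo-HM, labelled as a highly metastatic subline, and in its parent LoVo, which is a human cell line established from colorectal adenocarcinoma and labelled as wildtype, with 3 libraries each and no treatment in either group. How LoVo-HM was derived, whether it is 1 clone and whether the libraries of a group came from separate cultures is not stated, so p-values measure the spread between these libraries, which may be technical.

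Glutathione is a small thiol peptide made in consecutive steps by glutamate-cysteine ligase and glutathione synthetase. Glutathione peroxidases use it to reduce peroxides, glutathione S-transferases couple it to electrophiles, and glutathione reductase (GSR) returns its oxidised form to the thiol with NADPH. The thioredoxin system runs in parallel: peroxiredoxins reduce hydrogen peroxide, thioredoxin re-reduces them, and thioredoxin reductase re-reduces thioredoxin with NADPH. NRF2 is a transcription factor that is kept low by the ubiquitin ligase adaptor KEAP1 and that drives many of these genes through antioxidant response elements. In the colon, GPX2 is known as the glutathione peroxidase of the gut epithelium.

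Levels are FPKM (fragments per kilobase of transcript, corrected for library size), as the authors deposited them, and the read depth is unknown. Library totals were 424624 to 428265 FPKM in LoVo-HM and 434108 to 439082 FPKM in LoVo. The members took 0.732 to 0.766% of the FPKM in LoVo-HM libraries and 0.778 to 0.800% in LoVo libraries. Differences are LoVo-HM minus LoVo on the log2(FPKM + 1) scale with their SE, a scale that understates the change of low genes. The test was limma, its p-values were adjusted by Benjamini-Hochberg over the 14487 genes that averaged 0.5 FPKM or more, and an adjusted p under 0.05 is past the threshold. Of 8 colorectal epithelium markers, KRT8, KRT18, KRT19, EPCAM, CDH1 and CDX2 were detected in both lines, whereas VIL1 was listed at 0 in all 6 libraries and CDH17 reached at most 0.0361 FPKM, and the summed level was 2613 to 2718 FPKM in LoVo-HM, against 2016 to 2071 FPKM in LoVo and its part in the results was not tested. The sum was carried by keratins (KRT19 averaged 389 FPKM in LoVo-HM and 105 in LoVo), whereas CDH1 averaged 7.91 FPKM in LoVo-HM and 48.0 in LoVo, and EPCAM 51.7 FPKM in LoVo-HM and 128 in LoVo. The markers of immune cells (PTPRC listed at 0, summed level 2.90 to 3.30 FPKM in LoVo-HM and 3.84 to 4.02 FPKM in LoVo), of fibroblasts (COL1A2 listed at 0, 4.80 to 5.74 FPKM in LoVo-HM and 4.83 to 6.36 in LoVo), of endothelium and of hepatocytes were low or at 0. In bulk RNA, fewer cells with a transcript and less of it per cell cannot be told apart.

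Of the 56 members, 43 reached the minimum for testing, 10 were listed at 0 in every library and 3 lay below the minimum. Past the threshold were 28 of the 43, 8 higher and 20 lower in LoVo-HM. That is 65.1% of the tested members, where 44.9% of all tested genes passed; for genes lower in LoVo-HM the shares were 46.5% of the members and 23.1% of all genes, and for genes higher in LoVo-HM 18.6% and 21.8%. The median difference was -0.14 over the tested members and 0.0027 over all tested genes. Most shifts were small: 2 members, GPX2 and MGST1, passed with a change of at least 2-fold on the log2(FPKM + 1) scale, both lower, as did 6.56% of all tested genes (2.37% higher and 4.18% lower), and 16 of the 28 differed by less than 0.5 log2 units. The tested members were also more abundant than other genes, with a median of 31.4 FPKM against 8.54 FPKM over all tested genes, and the part of abundance in the share of members past the threshold was not tested. The groups of libraries did not overlap for 32 of the 43 members, 11 higher and 21 lower in LoVo-HM, which is 74.4% where 55% of all tested genes had no overlap.

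**Figure D1:**
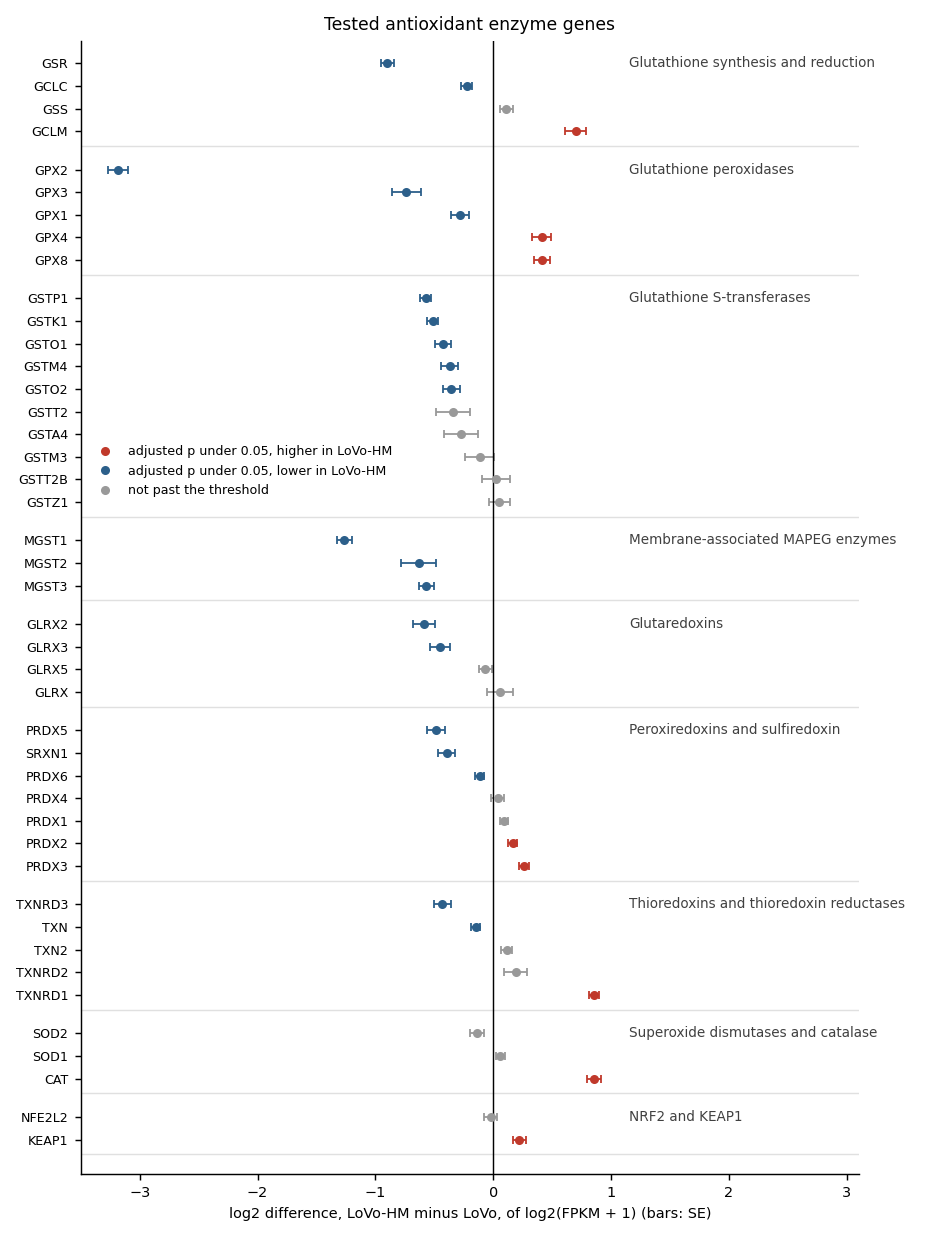
Log2 difference (LoVo-HM minus LoVo, of log2(FPKM + 1)) with its SE for the 43 tested members, grouped by enzyme class. GPX2 stands at -3.18 and MGST1 at -1.26, and every other member lies between -0.90 and 0.85. All 3 MGST genes are lower in LoVo-HM and no glutathione S-transferase is past the threshold on the higher side. Of all tested genes, 23.1% pass on the lower side and 21.8% on the higher side.

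In the genes that make and recycle glutathione, GSR and the catalytic ligase subunit GCLC fell in LoVo-HM, the modifier subunit GCLM rose and the synthetase GSS did not pass the threshold. GSR (ENSG00000104687, GRCh38 chromosome 8, 30678061 to 30727999) had 30.8, 27.7 and 27.5 FPKM in the LoVo-HM libraries, against 54.8, 52.9 and 55.3 FPKM in the LoVo libraries. All LoVo-HM libraries lay below all LoVo libraries, with 0.528 times the LoVo mean (-0.90 ± 0.056, limma adjusted p = 3.49e-06). GCLM (ENSG00000023909, chromosome 1, 93885205 to 93909456), the subunit that lowers the enzyme's need for glutamate and its feedback inhibition, had 10.4, 10.4 and 11.2 FPKM in LoVo-HM and 5.31, 6.63 and 6.67 in LoVo. Every LoVo-HM library was above every LoVo library, and the difference was 0.70 ± 0.090 (limma adjusted p = 0.000323).

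GCLC, which carries the active site of the ligase, had 21.9, 22.3 and 22.5 FPKM in LoVo-HM, against 26.1, 26.4 and 25.8 in LoVo, a tight and non-overlapping difference of -0.22 ± 0.047 (limma adjusted p = 0.00472). The level of GCLM per GCLC was 0.474, 0.464 and 0.499 in the LoVo-HM libraries and 0.203, 0.251 and 0.258 in the LoVo libraries, both per length. The modifier subunit therefore stood at about 0.479 of the catalytic subunit's level in LoVo-HM and 0.237 in LoVo, with GCLC the more abundant transcript in every library. GSS, which adds glycine in the last step, averaged 28.8 ± 1.49 FPKM in LoVo-HM and 26.5 ± 0.165 in LoVo (SD, n = 3 each; 0.11 ± 0.053, limma adjusted p = 0.121). The summed level of these 4 genes was 90.3 ± 0.249 FPKM in LoVo-HM, against 113 ± 0.843 in LoVo, and GSR had the largest difference among them.

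**Figure D2:**
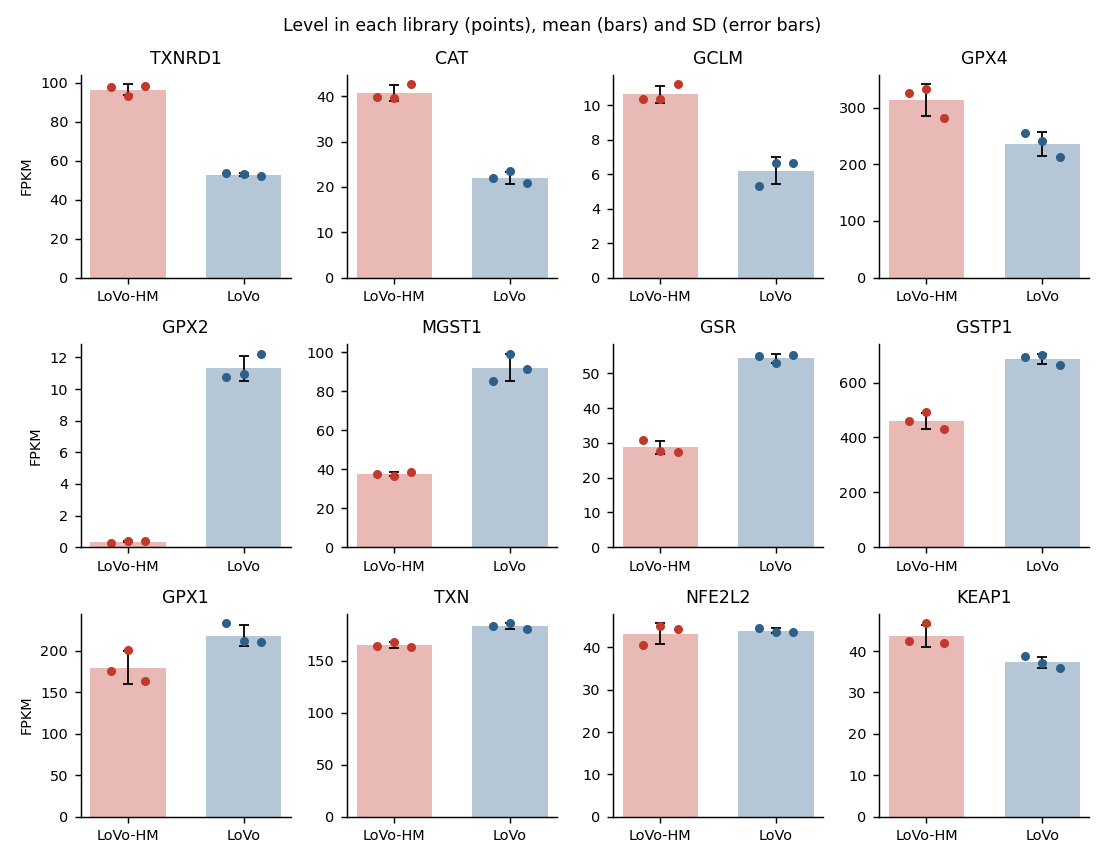
FPKM of 12 members in each library (points) with the group mean (bars) and SD (error bars, n = 3), LoVo-HM on the left of each panel. TXNRD1, CAT, GCLM and GPX4 are higher in LoVo-HM, GPX2, MGST1, GSR, GSTP1, GPX1 and TXN lower, NFE2L2 overlaps between the lines and KEAP1 is slightly higher in LoVo-HM.

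The reductase of the thioredoxin system went the other way from GSR. TXNRD1, the cytosolic thioredoxin reductase (ENSG00000198431, chromosome 12, 104215779 to 104350305), had 98.0, 93.2 and 98.1 FPKM in LoVo-HM, against 53.6, 53.0 and 52.1 FPKM in LoVo. Replicates were within a few FPKM of each other and the lines were far apart (1.82 times the LoVo mean, 0.85 ± 0.042, limma adjusted p = 7.53e-07). The ratio of TXNRD1 to GSR, both NADPH-dependent reductases, was 3.18, 3.36 and 3.57 in the LoVo-HM libraries, against 0.978, 1.00 and 0.942 in the LoVo libraries, where the levels were nearly equal. TXNRD3, a reductase known mainly from testis, fell, with 6.56 ± 0.137 FPKM in LoVo-HM and 9.22 ± 0.812 in LoVo (-0.43 ± 0.076, limma adjusted p = 0.00193). The mitochondrial reductase TXNRD2 did not pass the threshold, with 12.1, 12.9 and 10.97 FPKM in LoVo-HM, against 11.5, 10.8 and 8.93 in LoVo (0.19 ± 0.098, limma adjusted p = 0.150). TXNRD1 made up 82.8 to 84.9% of the summed reductase level in LoVo-HM and 71.6 to 73.7% in LoVo.

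The reductases' substrates moved much less. Cytosolic thioredoxin, TXN, had 165, 168 and 163 FPKM in LoVo-HM and 184, 186 and 181 in LoVo, a small but non-overlapping decrease (-0.15 ± 0.036, limma adjusted p = 0.00939). Without an intensity trend in the variance the adjusted p of TXN was 0.056. Mitochondrial thioredoxin, TXN2, averaged 47.7 ± 0.229 FPKM in LoVo-HM, against 44.0 ± 1.63 in LoVo, without overlap but short of the threshold (0.11 ± 0.046, limma adjusted p = 0.0741). With each library rescaled to the same total, TXN2 passed (0.15, limma adjusted p = 0.0262).

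Among the glutathione peroxidases the 5 tested genes all passed the threshold, 3 lower and 2 higher in LoVo-HM, as did 44.9% of all tested genes. GPX2 (ENSG00000176153, chromosome 14, 64939152 to 64942905) fell furthest of all members: it had 0.293, 0.382 and 0.388 FPKM in the LoVo-HM libraries and 10.8, 10.96 and 12.2 FPKM in the LoVo libraries. The LoVo-HM mean was 0.0313 times the LoVo mean, that is 32.0-fold lower (-3.18 ± 0.086, limma adjusted p = 1.69e-08). GPX3, a secreted peroxidase best known from plasma, was low in both lines, with 0.451, 0.510 and 0.244 FPKM in LoVo-HM and 1.33, 1.14 and 1.53 in LoVo (-0.74 ± 0.12, limma adjusted p = 0.00139). The GPX3 mean was 3.32-fold lower in LoVo-HM, and its difference was -1.55 with a pseudocount of 0.1 in place of 1, so that 3 members passed at 2-fold with pseudocounts of 0.1 and 0.5. GPX2 and GPX3 reached the minimum for testing through their LoVo level alone.

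GPX1, the widespread cytosolic and mitochondrial peroxidase, and GPX4, which reduces lipid hydroperoxides in membranes and guards cells against ferroptosis, moved in opposite directions. GPX4 (ENSG00000167468, chromosome 19, 1103926 to 1106791) had 325, 334 and 282 FPKM in LoVo-HM, against 254, 241 and 212 FPKM in LoVo. Despite a wide spread in both lines there was no overlap, and the difference was 0.41 ± 0.081 (limma adjusted p = 0.00362). GPX1 (chromosome 3, 49357171 to 49358600) had 175, 201 and 163 FPKM in LoVo-HM, against 233, 211 and 211 in LoVo (-0.28 ± 0.077, limma adjusted p = 0.0162). The adjusted p of GPX1 was 0.0525 without LoVo-HM replicate 1 and 0.0565 without LoVo replicate 1, and its transcripts share 22.3% of their 31-base words with other genes, mostly the pseudogene GPX1P1. GPX4 therefore held 61.1 to 63.4% of the summed peroxidase level in LoVo-HM and 47.6 to 51.0% in LoVo, while the sum itself was 505 ± 44.9 FPKM in LoVo-HM and 475 ± 31.6 in LoVo, overlapping between the lines.

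GPX8, a peroxidase of the endoplasmic reticulum, rose, with 11.6, 10.8 and 12.2 FPKM in LoVo-HM, against 8.37, 8.30 and 8.52 in LoVo (0.41 ± 0.065, limma adjusted p = 0.00106). GPX5, GPX6 and GPX7 were listed at 0 in every library. Several of these enzymes are selenoproteins, in which a TGA codon that usually ends translation is read as selenocysteine at the active site. GENCODE 29 marks such a codon in 8 members. The windows below are shown because these codons set the selenoprotein members apart from the others by sequence; each gives the codon in capitals with 12 transcript bases on either side, 5′ to 3′, and its GRCh38 position follows the name.
GPX1 (chr3:49358132-49358134, minus strand): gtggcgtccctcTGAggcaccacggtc
GPX2 (chr14:64942607-64942609, minus strand): gtggcttcgctcTGAggcacaaccacc
GPX3 (chr5:151025469-151025471, plus strand): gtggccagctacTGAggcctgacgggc
GPX4 (chr19:1105403-1105405, plus strand): gtggcctcccagTGAggcaagaccgaa
TXNRD1 (chr12:104348413-104348415, plus strand): caggctggctgcTGAggttaagcccca
TXNRD2 (chr22:19877111-19877113, minus strand): gtgacaggctgcTGAgggtaagcgcca
TXNRD3 (chr3:126607911-126607913, minus strand): cagaaaggctgcTGAggctaggcctgc

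The selenoprotein members moved in different directions. Of the 7 that were tested, TXNRD1 and GPX4 rose, GPX1, GPX2, GPX3 and TXNRD3 fell and TXNRD2 did not pass the threshold. GPX6 was listed at 0. Past the threshold among all tested genes, 21.8% were higher and 23.1% lower. The sequence around the codon is partly shared within each family. In every window shown, of either family, a glycine codon follows. The reductase codon is preceded by a cysteine codon near the end of the reading frame.

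All 3 genes of the membrane-associated MAPEG enzymes, which include microsomal glutathione transferases and leukotriene C4 synthases, fell in LoVo-HM. For comparison, 23.1% of all tested genes were lower past the threshold. MGST1, a transferase and peroxidase of the endoplasmic reticulum and outer mitochondrial membrane (ENSG00000008394, chromosome 12, 16347142 to 16609259), had 37.7, 36.4 and 38.7 FPKM in LoVo-HM, against 85.4, 99.1 and 91.1 FPKM in LoVo. The highest LoVo-HM library was far below the lowest LoVo library (0.409 times the LoVo mean, -1.26 ± 0.060, limma adjusted p = 6.22e-07). MGST3 had 22.4, 24.2 and 24.4 FPKM in LoVo-HM and 32.8, 36.3 and 37.6 in LoVo (-0.57 ± 0.064, limma adjusted p = 0.000146). MGST2 had 11.5, 11.7 and 12.01 FPKM in LoVo-HM, against 21.6, 21.8 and 14.0 in LoVo, where replicate 3 lay well below the other libraries of its line but still above LoVo-HM (-0.63 ± 0.15, limma adjusted p = 0.00790). Summed, the 3 genes had 73.0 ± 1.84 FPKM in LoVo-HM and 147 ± 9.36 in LoVo, the lowest ratio of any enzyme class here (0.498).

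**Figure D3:**
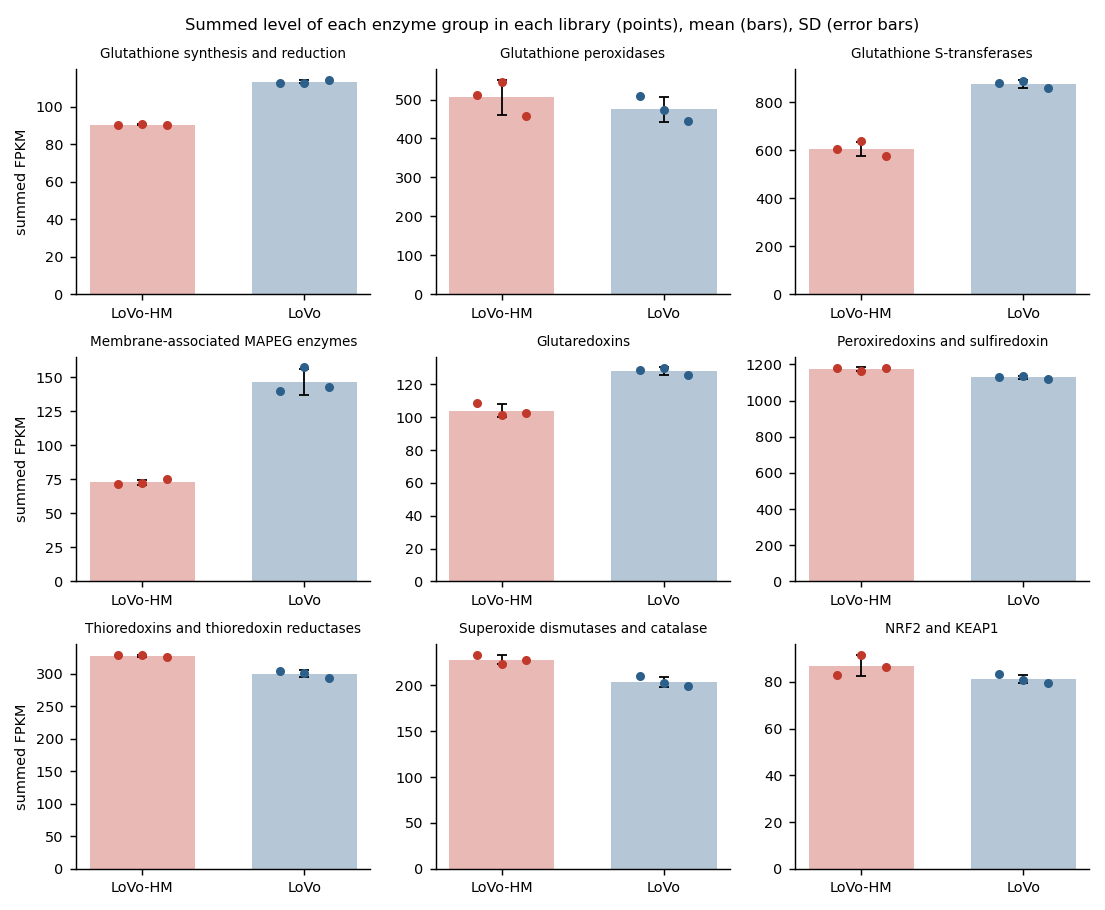
Summed FPKM of each enzyme class in each library (points) with mean (bars) and SD (error bars, n = 3), LoVo-HM left of LoVo. MAPEG enzymes stand at 73.0 FPKM in LoVo-HM, against 147 in LoVo, S-transferases at 606 and 877 FPKM, and peroxiredoxins at 1174 and 1129 FPKM.

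Soluble glutathione S-transferases were lower or not past the threshold: of 18 members 10 were tested, of which 5 fell, 0 rose and 5 did not pass. Passing in either direction was thus about as frequent as among all tested genes (44.9%), of which 23.1% were lower and 21.8% higher. GSTP1, the pi-class enzyme and the most abundant member in LoVo (ENSG00000084207, chromosome 11, 67583595 to 67586656), had 458, 492 and 432 FPKM in LoVo-HM and 693, 701 and 666 in LoVo. The lines were separated by well over the replicate spread (0.671 times the LoVo mean, -0.58 ± 0.051, limma adjusted p = 3.19e-05). GSTK1, the kappa-class enzyme of mitochondria and peroxisomes, had 49.6, 52.4 and 50.5 FPKM in LoVo-HM, against 73.9, 69.8 and 75.7 FPKM in LoVo (-0.52 ± 0.048, limma adjusted p = 4.41e-05). The omega-class neighbours on chromosome 10, GSTO1 and GSTO2, which reduce dehydroascorbate, both fell (-0.43 ± 0.068 and -0.36 ± 0.074, limma adjusted p = 0.00105 and 0.00444). Mu-class GSTM4 fell as well, at 7.86 ± 0.558 FPKM in LoVo-HM, against 10.4 ± 0.209 in LoVo (-0.37 ± 0.069, limma adjusted p = 0.00251).

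GSTP1 supplied 75.0 to 77.2% of the summed transferase level in LoVo-HM and 77.4 to 78.8% in LoVo, and the sum was 606 ± 30.6 FPKM in LoVo-HM and 877 ± 15.8 in LoVo. Members not past the threshold were GSTA4, which conjugates the lipid aldehyde 4-hydroxynonenal (-0.28 ± 0.15, limma adjusted p = 0.160), GSTM3, GSTT2, GSTT2B and GSTZ1, the last an isomerase of tyrosine breakdown. GSTT2 (1.16 ± 0.306 FPKM in LoVo-HM, against 1.74 ± 0.365 in LoVo) and GSTT2B share 94.3% of GSTT2B's 31-base words, so the split between them is uncertain. The same holds for the mu class, where 22.9% of GSTM4's words occur in other genes. GSTM1 and GSTM2 lay below the minimum for testing, with at most 0.123 and 0.546 FPKM in any library. GSTA1, GSTA2, GSTA3, GSTA5, GSTM5 and GSTT4 were listed at 0 in all 6 libraries, so in these cells the alpha class was represented by GSTA4 among the genes of the table.

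Glutaredoxins, small glutathione-dependent oxidoreductases, were lower for 2 of 4 genes, where 23.1% of all tested genes were lower and 44.9% passed in either direction. Mitochondrial GLRX2 had 6.21, 7.16 and 8.12 FPKM in LoVo-HM, against 11.7, 11.5 and 10.5 FPKM in LoVo, with the LoVo-HM libraries spread more widely but all below LoVo (-0.59 ± 0.093, limma adjusted p = 0.00105). GLRX3, a monothiol protein of iron-sulfur cluster handling, fell too (48.7 ± 6.046 FPKM in LoVo-HM and 66.8 ± 3.97 in LoVo, -0.45 ± 0.085, limma adjusted p = 0.00272). The cytosolic GLRX (0.055 ± 0.11) and the mitochondrial iron-sulfur protein GLRX5 (-0.067 ± 0.057) did not pass (limma adjusted p = 0.711 and 0.377).

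Peroxiredoxins were among the most abundant members and changed little in sum, at 1174 ± 10.6 FPKM in LoVo-HM, against 1129 ± 9.58 in LoVo with sulfiredoxin included. PRDX1, the main cytosolic peroxiredoxin and the most abundant member in LoVo-HM, had 537, 529 and 545 FPKM in LoVo-HM and 506, 504 and 503 in LoVo. The libraries did not overlap, yet the difference of 0.090 ± 0.032 fell just short of the threshold (limma adjusted p = 0.0501), and it passed in 7 of 17 other settings, with adjusted p of 0.0123 to 0.0499 there. PRDX2, a cytosolic paralog, and PRDX3, the mitochondrial enzyme, rose slightly: PRDX3 had 184, 176 and 191 FPKM in LoVo-HM, against 152, 151 and 154 in LoVo (0.26 ± 0.042, limma adjusted p = 0.00106), and the PRDX2 difference was 0.16 ± 0.037 (limma adjusted p = 0.00731).

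PRDX5, an atypical peroxiredoxin of mitochondria, peroxisomes and cytosol, fell, with 78.0, 90.0 and 72.1 FPKM in LoVo-HM and 110.5, 118 and 108 in LoVo (-0.49 ± 0.078, limma adjusted p = 0.00115). PRDX3 thus stood at 2.36, 1.95 and 2.64 times PRDX5 in the LoVo-HM libraries and at 1.37, 1.28 and 1.43 times in the LoVo libraries. PRDX6, which relies on glutathione in place of thioredoxin, was marginally lower (-0.11 ± 0.039, limma adjusted p = 0.0425) and lost the threshold in 10 of 17 other settings, among them the omission of any 1 library. PRDX4, the enzyme of the endoplasmic reticulum, did not pass (0.037 ± 0.054, limma adjusted p = 0.607). SRXN1, which repairs over-oxidised peroxiredoxins, fell, with 14.6, 15.2 and 12.7 FPKM in LoVo-HM, against 18.9, 18.9 and 18.8 in LoVo (-0.40 ± 0.071, limma adjusted p = 0.00216). SRXN1 shares 84.9% of its 31-base words with an overlapping gene model, AL121758.1, and its value is therefore uncertain. PRDX1 overlaps MMACHC on the opposite strand over 25% of its exonic bases and the strand setting is not given in the sources used here.

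Catalase, which breaks down hydrogen peroxide in peroxisomes without thiols, rose in LoVo-HM while the superoxide dismutases that produce hydrogen peroxide did not pass the threshold. CAT (ENSG00000121691, chromosome 11, 34438925 to 34472062) had 39.8, 39.5 and 42.7 FPKM in LoVo-HM, against 21.9, 23.5 and 20.9 FPKM in LoVo. All LoVo-HM libraries were well above LoVo (1.84 times the LoVo mean, 0.85 ± 0.060, limma adjusted p = 7.31e-06). Cytosolic SOD1 had 178, 169 and 171 FPKM in LoVo-HM and 172, 163 and 163 in LoVo, with the libraries of the lines overlapping (0.061 ± 0.041, limma adjusted p = 0.264). The main row of mitochondrial SOD2 had 15.3, 14.7 and 13.7 FPKM in LoVo-HM, against 16.4, 15.9 and 16.1 in LoVo, lower in each LoVo-HM library but not past the threshold (-0.14 ± 0.059, limma adjusted p = 0.0865). The other SOD2 row, an overlapping gene model, had at most 0.117 FPKM in any library, and the extracellular SOD3 was listed at 0 throughout. CAT stood at 0.223, 0.233 and 0.2495 times SOD1 in the LoVo-HM libraries and at 0.128, 0.144 and 0.128 times in the LoVo libraries.

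**Figure D4:**
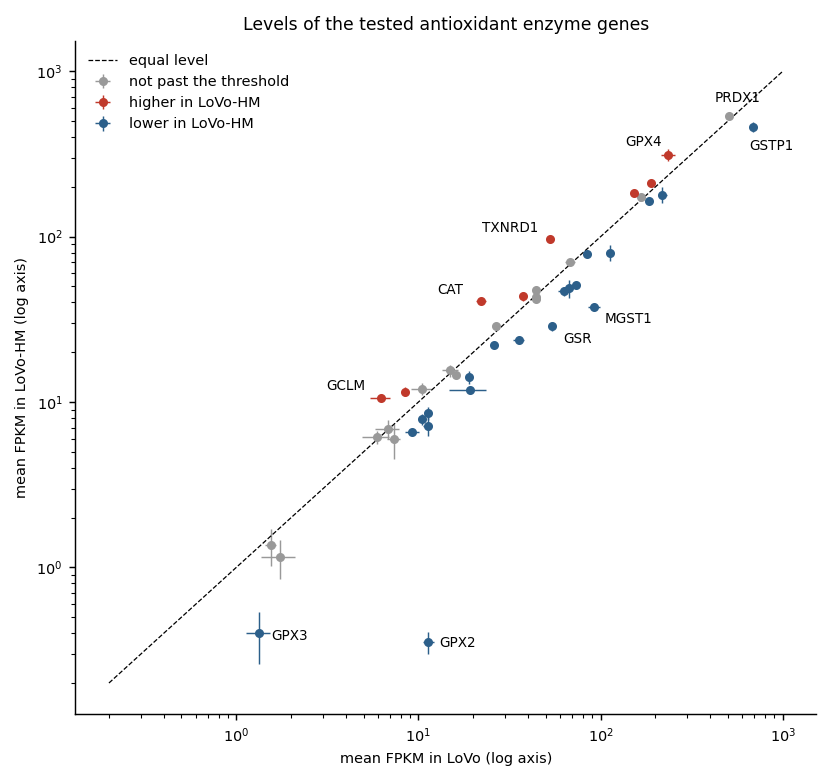
Mean FPKM of the 43 tested members in LoVo-HM (vertical, log axis) against LoVo (horizontal, log axis), with SD bars (n = 3) and the line of equal level. Mean levels reach over 400 FPKM in both lines, with a Spearman rho of 0.95 between them, and GPX2 is the member farthest off the line at 0.354 FPKM in LoVo-HM and 11.3 in LoVo.

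The order of levels was largely shared between the lines, with a Spearman rho of 0.95 across the 43 tested genes, given as a description since genes are not replicates. Above 100 FPKM on average over the 6 libraries were 8 members, 22 lay between 10 and 100 FPKM and 13 tested members lay below 10 FPKM. The size of the difference showed little relation to level among the members (Spearman rho -0.082 across the same genes).

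Of the regulators, KEAP1 was slightly higher and NFE2L2 did not pass the threshold. NFE2L2 (ENSG00000116044, chromosome 2, 177227595 to 177392697) had 40.5, 45.0 and 44.3 FPKM in LoVo-HM, against 44.6, 43.7 and 43.6 in LoVo. The libraries overlapped and the difference was -0.024 ± 0.053 (limma adjusted p = 0.741), a value whose sign turned with each library rescaled to the same total (0.0082). NFE2L2 transcripts share 15.5% of their 31-base words with other genes, mostly AC019080.1, an overlapping gene model on the same strand. KEAP1 (ENSG00000079999, chromosome 19, 10486120 to 10503741) had 42.3, 46.7 and 42.0 FPKM in LoVo-HM, against 38.7, 37.2 and 36.0 FPKM in LoVo, a small non-overlapping increase (0.22 ± 0.057, limma adjusted p = 0.0128). NRF2 activity is set mainly by protein stability, which these data do not measure.

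Promoter windows from RefSeq (GRCh38.p14, 250 bases before to 50 bases after a start) were found for 45 of the 55 symbols, in 63 windows because some genes have several starts. The core of the antioxidant response element, TGACNNNGC on either strand, occurred in 11 of the 63 windows (17.5%) and in 13.3% of all 35116 windows of that table. The 10 genes with it were GCLM, GPX2, GSTA4, GSTM1, GSTM5, GSTO1, GSTP1, KEAP1, MGST1 and TXNRD1. Among all tested genes 21.8% rose and 23.1% fell past the threshold. Of the 8 with the core that were tested, GCLM, KEAP1 and TXNRD1 rose, GPX2, GSTO1, GSTP1 and MGST1 fell and GSTA4 did not pass. The same letters thus stood in windows of genes that moved in opposite directions, and a match is only letters in a window. In MGST1 the match lay after the start, at bases 31 to 39. MGST1 and KEAP1 also had windows without the core. The deposited values are per gene and do not say which start was used. The windows of 4 genes are shown because these carry the core and differ in direction; capitals mark the core, and the sequence runs 5′ to 3′ on the strand of the gene.
GCLM (chr1:93909381-93909680, minus strand, higher in LoVo-HM): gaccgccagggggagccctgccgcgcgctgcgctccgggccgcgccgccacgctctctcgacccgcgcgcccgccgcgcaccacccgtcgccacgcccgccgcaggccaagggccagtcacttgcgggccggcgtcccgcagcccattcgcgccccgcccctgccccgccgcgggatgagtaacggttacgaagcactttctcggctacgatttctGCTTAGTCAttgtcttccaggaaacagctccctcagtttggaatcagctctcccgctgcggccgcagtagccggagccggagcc
TXNRD1 (chr12:104286782-104287081, plus strand, higher in LoVo-HM): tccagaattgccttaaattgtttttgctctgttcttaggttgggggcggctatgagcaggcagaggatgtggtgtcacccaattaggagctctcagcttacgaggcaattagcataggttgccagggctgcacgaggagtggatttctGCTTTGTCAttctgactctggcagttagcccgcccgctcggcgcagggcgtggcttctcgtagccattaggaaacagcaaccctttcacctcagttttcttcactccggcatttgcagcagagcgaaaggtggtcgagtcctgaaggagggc
GPX2 (chr14:64942696-64942995, minus strand, lower in LoVo-HM): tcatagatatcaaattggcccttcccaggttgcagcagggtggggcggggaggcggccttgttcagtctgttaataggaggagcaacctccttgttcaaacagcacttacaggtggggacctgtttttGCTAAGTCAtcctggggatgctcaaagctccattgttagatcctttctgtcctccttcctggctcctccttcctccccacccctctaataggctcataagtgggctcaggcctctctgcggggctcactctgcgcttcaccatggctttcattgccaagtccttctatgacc
GSTP1 (chr11:67583562-67583861, plus strand, lower in LoVo-HM): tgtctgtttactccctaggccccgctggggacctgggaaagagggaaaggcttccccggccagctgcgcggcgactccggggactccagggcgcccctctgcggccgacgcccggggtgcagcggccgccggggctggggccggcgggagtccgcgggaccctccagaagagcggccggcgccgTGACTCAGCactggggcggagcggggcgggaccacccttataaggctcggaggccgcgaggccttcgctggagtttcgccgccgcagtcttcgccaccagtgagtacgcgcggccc

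In GCLM the core lay at -34 to -26 relative to the start (base 1) and read TGACTAAGC on the opposite strand, and in GPX2 it lay at -122 to -114 and read TGACTTAGC on the opposite strand. The TXNRD1 core (TGACAAAGC, opposite strand) lay at -102 to -94 in the window shown, which belongs to the downstream of its 2 starts; the upstream window holds the core as well. In GSTP1 the core TGACTCAGC lay at -66 to -58 and overlapped an AP-1 motif (TGANTCA), which was searched alongside.

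Genes driven by NRF2 outside the members were also mixed, in a list of textbook targets with 26 genes. Of the 21 that were tested, 9 rose, 6 fell and 6 did not pass, where 21.8% of all tested genes rose and 23.1% fell. The median difference of the list was 0.14, against 0.0027 over all tested genes. FTH1, the iron-storing ferritin heavy chain and a gene with many processed pseudogenes, had 2057, 1941 and 1944 FPKM in LoVo-HM and 692, 706 and 666 in LoVo (1.52 ± 0.039, limma adjusted p = 1.32e-08). NQO1, a quinone reductase widely used as a readout of NRF2, had 7.15, 9.67 and 8.65 FPKM in LoVo-HM, against 6.07, 3.68 and 4.10 FPKM in LoVo, with a wide spread and no overlap (0.77 ± 0.16, limma adjusted p = 0.00455). The haem oxygenase HMOX1 (0.83 ± 0.15) and the ferritin light chain FTL (0.40 ± 0.041) rose too (limma adjusted p = 0.00184 and 8.73e-05). On the other side ABCC1, which exports glutathione conjugates, had 15.01, 16.0 and 15.1 FPKM in LoVo-HM, against 39.1, 37.4 and 37.8 in LoVo (-1.26 ± 0.051, limma adjusted p = 2.29e-07), and the carbonyl reductase CBR1 fell (-0.58 ± 0.068, limma adjusted p = 0.000176).

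Regulators and partners of NRF2 were lower for 8 of 14 genes, higher for 2 and not past the threshold for 4, with a median of -0.31. Over all tested genes the shares were 23.1% lower and 21.8% higher. BACH1, a repressor that competes for the same elements, had 4.82, 4.04 and 4.17 FPKM in LoVo-HM and 7.45, 7.44 and 8.33 in LoVo (-0.71 ± 0.084, limma adjusted p = 0.000190). The small MAF protein MAFF, a dimer partner, had 3.82, 4.80 and 4.36 FPKM in LoVo-HM, against 8.19, 9.18 and 9.60 in LoVo (-0.91 ± 0.092, limma adjusted p = 7.65e-05). NFE2L1, a related factor, and TRIM21, a ubiquitin ligase of SQSTM1, fell as well (-0.38 ± 0.045 and -0.98 ± 0.15, limma adjusted p = 0.000183 and 0.000837).

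Genes that supply NADPH, the electron source of both reductases, were all tested: 7 of 19 rose, 4 fell and 8 did not pass, with a median of 0.080. Over all tested genes 44.9% passed, 21.8% higher and 23.1% lower. NADK2, the mitochondrial NAD kinase, had 64.96, 59.3 and 77.1 FPKM in LoVo-HM, against 34.2, 29.8 and 29.2 FPKM in LoVo (1.08 ± 0.098, limma adjusted p = 3.67e-05), and the mitochondrial malic enzyme ME3 rose (1.12 ± 0.10, limma adjusted p = 3.97e-05). The folate enzyme MTHFD1 rose (0.43 ± 0.043, limma adjusted p = 6.91e-05), whereas ALDH1L2, the mitochondrial formyltetrahydrofolate dehydrogenase, had 1.28, 0.992 and 1.47 FPKM in LoVo-HM and 4.95, 4.99 and 4.78 in LoVo (-1.40 ± 0.0999, limma adjusted p = 8.52e-06).

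In the list of cysteine and glutathione supply and turnover 15 of 20 genes were tested. Of these, 4 rose, 5 fell and 6 did not pass, with a median of -0.054. The shares over all tested genes were 21.8% higher and 23.1% lower. CTH, cystathionine gamma-lyase, which makes cysteine from methionine by transsulfuration, had 85.7, 83.1 and 95.6 FPKM in LoVo-HM, against 10.9, 10.6 and 10.9 in LoVo. Its LoVo-HM mean was 8.16 times the LoVo mean (2.91 ± 0.061, limma adjusted p = 3.90e-09), while CBS, the enzyme of the preceding step, averaged 0 FPKM in LoVo-HM and 0.0169 in LoVo. The cystine importer's light chain SLC7A11 had 4.17, 3.85 and 4.24 FPKM in LoVo-HM, against 2.58, 2.52 and 2.57 FPKM in LoVo (0.52 ± 0.077, limma adjusted p = 0.000786). Its heavy chain SLC3A2, shared with other transporters, fell (-0.59 ± 0.037, limma adjusted p = 3.86e-06), as did the glutamine transporter SLC1A5 (-0.42 ± 0.042, limma adjusted p = 7.18e-05).

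Thioredoxin-fold and methionine sulfoxide reductase partners were split: 5 of 20 rose, 7 fell and 8 did not pass, with a median of -0.00020. Over all tested genes 21.8% rose and 23.1% fell. TXNIP, the inhibitor that binds reduced thioredoxin, had 34.1, 32.2 and 33.4 FPKM in LoVo-HM, against 24.3, 27.1 and 27.1 in LoVo, a modest non-overlapping increase (0.33 ± 0.058, limma adjusted p = 0.00180). Nucleoredoxin, NXN, rose (0.61 ± 0.066, limma adjusted p = 0.000111), and the methionine sulfoxide reductase MSRB3 had 3.25, 2.47 and 3.15 FPKM in LoVo-HM and 0.236, 0.322 and 0.342 in LoVo (1.60 ± 0.11, limma adjusted p = 7.75e-06; 2.93 with a pseudocount of 0.1). MSRB3 reached the minimum for testing through its LoVo-HM level alone. In the endoplasmic reticulum, the disulfide oxidase ERO1A (-0.71 ± 0.056) and the disulfide isomerase PDIA3 (-0.35 ± 0.038) fell (limma adjusted p = 1.53e-05 and 0.000121).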

How the data were processed

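RNA extracted with Trizol was made into libraries with a TruSeq RNA kit from Illumina, per the labels' protocols, and the authors deposited expression as FPKM, 1 column per library, in a single table. Per the submitters' processing notes the build was GRCh38. For the aligner, counter, annotation release and strand setting, and for read depth, nothing is given in the sources used here. Ratios of 2 libraries at values below 0.3 FPKM showed no steps worth 1 read (3.35% of 1554 ratios in the commonest bin of 0.05 log2 units), so reads were not recovered and no count model, counting interval or detection limit was used.

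FPKM values were taken unscaled to log2 with a pseudocount of 1. The 14487 genes whose mean over all 6 libraries reached 0.5 FPKM entered a two-sided limma test with an intensity trend (limma 3.58.1, R 4.3.3), and Benjamini-Hochberg adjustment ran over all of them. The 4606 rows without a symbol stayed in the fit. All 56 members matched GENCODE 29 for positions and exon overlap. Shared sequence is the share of a gene's 31-base transcript words found in transcripts of other genes. The fit was checked on simulated data with 200 changed genes, far fewer than passed in the real data. It recovered 12% of changes of 0.25 log2 units, 68% of 0.5 units and 96% of 1 unit. Not passing the threshold therefore does not show that a gene was unchanged.

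Members and related lists were chosen with earlier results of these data known. Values in every library are given for members past the threshold with at least 0.5 log2 units and for 12 by name (NFE2L2, KEAP1, GPX4, TXN, TXNRD1, GSR, GCLC, GCLM, SOD1, SOD2, CAT, GSTP1); those given for other members were chosen after their values were seen. Each related list is named by up to 4 genes of smallest p, besides SLC7A11, NQO1, HMOX1 and TXNIP; some genes of these lists are counted but not reported here by name. Alternatives were pseudocounts of 0.1 and 0.5, no filter, a minimum of 2 FPKM, 3 other scalings, 2 other variance fits, the replicate number as a block and the omission of each library; a fit without rows lacking a symbol, and the scalings and omissions for summed levels, were chosen after seeing the data.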

Additional observations from a re-analysis of the deposited data

How the results depend on the processing

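Members past the threshold numbered 26 to 29 in all 17 other settings against 28, with 8 to 10 higher and 18 to 20 lower, and 25 of the 28 passed in every setting; the exceptions were PRDX6, TXN and GPX1. With the replicate number as a block, 27 members and 6459 genes passed against 6508 without it, 60 genes of the related lists passed with and without it, and PRDX6 was the only member to lose the threshold (adjusted p = 0.0618); the numbers give no pairing, since deviations of same-numbered libraries correlated at only -0.007 to 0.026. Leaving out 1 library gave 26 to 28 members and 5484 to 5986 genes past the threshold. No scaling moved the median of all genes by more than 0.042 log2 units, but the balance over all tested genes turned: 3161 were higher and 3347 lower as deposited, 3573 higher and 3066 lower with rescaling to the same total, and 3644 higher and 2970 lower with quantile normalization. Among genes that did not pass, signs near 0 turned. NFE2L2 was 0.0082 with rescaling to the same total, and over the omissions of 1 library NFE2L2 ranged from -0.052 to 0.023, GSTZ1 from -0.00051 to 0.13, PRDX4 from -0.015 to 0.064, GSTT2B from -0.070 to 0.13, GLRX from -0.0037 to 0.17, CYBA from -0.20 to 0.0066 and NOXA1 from -0.12 to 0.0062, while NOXA1 was 0.059 with quantile normalization. GSTT2 passed without LoVo-HM replicate 2 (adjusted p = 0.0436). With rescaling to the same total the log2 ratio of the summed level of all members was -0.080, and -0.11 without it. The unknown depth limits the reading of genes under about 1 FPKM, such as GPX2 and GPX3 in LoVo-HM.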

Other observations

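Genes of lipid peroxidation and ferroptosis outside the members numbered 14, of which 11 were tested: 4 fell, 1 rose and 6 did not pass, with a median of -0.12. Passing in either direction held for 44.9% of all tested genes, with 23.1% lower and 21.8% higher. ACSL3, which activates monounsaturated fatty acids, rose, with 29.5, 28.0 and 29.9 FPKM in LoVo-HM and 17.1, 16.9 and 19.1 in LoVo (0.69 ± 0.063, limma adjusted p = 3.79e-05). AIFM2 (FSP1), which protects membranes in parallel to GPX4, fell, with 6.20, 6.06 and 5.98 FPKM in LoVo-HM, against 9.95, 9.22 and 9.70 in LoVo (-0.59 ± 0.064, limma adjusted p = 0.000115). ACSL4, which favours polyunsaturated fatty acids, and the iron exporter SLC40A1 fell as well (-0.29 ± 0.082 and -0.43 ± 0.081, limma adjusted p = 0.0208 and 0.00264). The number of genes past the threshold in this list was 8 with quantile normalization and 3 without LoVo-HM replicate 1.

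In the list of genes for selenoprotein synthesis and related genes, 1 of 8 tested genes passed, where 44.9% of all tested genes did. It was the elongation factor EEFSEC (0.32 ± 0.065, limma adjusted p = 0.00414), and without a filter 2 genes of the list passed. LRP8, PSTK and SEPSECS did not pass (-0.15 ± 0.059, 0.17 ± 0.17 and -0.11 ± 0.12, limma adjusted p = 0.0679, 0.436 and 0.487). Among genes of NADPH oxidases, CYBA and NOXA1 did not pass (-0.11 ± 0.094 and -0.047 ± 0.10, limma adjusted p = 0.376 and 0.735). The oxidase subunits NOX3, NOX4 and NOX5 were listed at 0 in every library.

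Among red cell markers, the alpha-globin genes HBA1 and HBA2, which are near-identical copies, averaged 139 and 117 FPKM in LoVo-HM and 111 and 91.3 in LoVo. The beta-globin gene HBB was listed at 0 in all 6 libraries and ALAS2 averaged 0 FPKM in LoVo-HM, against 0.0296 in LoVo.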
